A study of Mus musculus with 2 samples.

Results

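The miR-30 family of mouse was followed in fibro-adipogenic progenitors (FAPs), mesenchymal cells that lie between muscle fibres and give rise to adipocytes and fibroblasts. Its rows were all mature arms named miR-30a, miR-30b, miR-30c, miR-30d or miR-30e (mmu-miR-30a-5p, mmu-miR-30b-5p, mmu-miR-30c-5p, mmu-miR-30d-5p, mmu-miR-30e-5p and the 3p arms of their hairpins), which gave 11 of the 628 listed rows, 5 of them 5p arms and 6 of them 3p arms. The cells were Sca1-positive FAPs sorted from skeletal muscle of wild-type C57Bl/6 mice. Growth medium held 20% FBS and 10% HS with FGF at 5 ng/ml. At about 80% confluence the cultures were moved for 24 h to basal medium (BM, with 10% HS) or in adipogenic differentiation medium (ADM), whose composition was not given in the sources used here. Each medium gave 1 small RNA library, so every difference below is between 2 libraries, with no replicate check. Age, sex and the number of mice behind each library were also not given.

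miRNAs are short RNAs cut from a hairpin, which has a 5p and a 3p arm. One arm is usually kept in the silencing complex, and bases 2 to 8 of that arm, the seed, pair with messenger RNAs that are then repressed. The miR-30 family is known for repressing Runx2, a master regulator of bone formation, and in human adipose-derived stem cells miR-30a and miR-30d were reported to favour adipocyte formation. Other known targets are Snai1, a driver of mesenchymal transition, and Ccn2, a matrix-associated growth factor also called Ctgf.

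RefSeq (GRCm38.p6) gave sequences for 7 of the 11 arms. The 5p arms are shown with the seed in capitals, because the seed is what makes them a family and the remaining bases are what lets reads be assigned to a member.
miR-30a-5p: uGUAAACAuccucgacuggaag
miR-30e-5p: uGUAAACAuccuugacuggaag
miR-30c-5p: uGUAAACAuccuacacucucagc
All of these share their first 12 bases. Counted from 1 at the 5′ end, miR-30a-5p and miR-30e-5p differ at 1 of 22 positions (C13U), and miR-30a-5p and miR-30c-5p at 5 of 22. Among the 1679 names searched in the RefSeq table, miR-384-5p, from the X chromosome, was the only other mature miRNA with the same seed. It was not among the 628 listed rows. The RefSeq table held no miR-30b or miR-30d sequence, so the search cannot be complete.

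The 3p arms for which RefSeq gave a sequence carry other seeds, again in capitals, and fall into a pair with UUUCAGU and a pair with UGGGAGA. Seeds of 3p arms without a sequence could not be checked.
miR-30a-3p: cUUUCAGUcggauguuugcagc
miR-30e-3p: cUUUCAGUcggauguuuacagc
miR-30c-2-3p: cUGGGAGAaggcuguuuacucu
miR-30c-1-3p: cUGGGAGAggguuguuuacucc
miR-30a-3p and miR-30e-3p differ at 1 position (G18A), and miR-30c-1-3p and miR-30c-2-3p at 3 (G9A, U12C and C22U). The number of mismatches allowed when reads were assigned was not given in the sources used here. Some exchange of reads between miR-30a and miR-30e therefore cannot be told apart from their own reads. Without sequences of miR-30b and miR-30d, the same limit could not be checked for those members and may hold for them too.

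The family comes from 6 hairpins at 3 loci, 2 at each (GENCODE M21, GRCm38). On chromosome 1, Mir30a (23272269-23272339, plus strand) overlaps no other gene, and Mir30c-2 (23291701-23291784, plus strand) overlaps an exon of the lincRNA Gm27028, with 19.4 kb between the hairpins. On chromosome 4, Mir30e (120772606-120772697, minus strand) and Mir30c-1 (120769534-120769622, minus strand) both lie in introns of Nfyc, which encodes a subunit of the CCAAT-binding factor NF-Y, 2.98 kb apart. The Mir30e hairpin also overlaps Mir30f, annotated on the opposite strand. On chromosome 15, Mir30b (68337415-68337510) and Mir30d (68341208-68341289), both on the minus strand, lie 3.70 kb apart and overlap exons of the noncoding genes Gm26621 and Gm20732 in turn. Mature miR-30c-5p is the same sequence from both Mir30c-1 and Mir30c-2 and is 1 row, while the 3p arms of these hairpins are separate rows. The hairpins of Mir30a and Mir30e are shown with both mature arms in capitals, because the comparison between them recurs below.
Mir30a: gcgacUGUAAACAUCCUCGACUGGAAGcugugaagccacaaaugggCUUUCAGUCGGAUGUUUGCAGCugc
Mir30e: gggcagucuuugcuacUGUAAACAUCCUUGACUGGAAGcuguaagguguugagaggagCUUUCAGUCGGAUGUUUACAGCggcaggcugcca

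The authors gave each miRNA as a percent of reads, from which whole reads were recovered out of 755193 in BM and 790617 in ADM, and levels are also given as RPM, the percent value times 10000. Intervals are 95% counting intervals, exact apart from normal ones for differences of log2 ratios, for odds ratios and for ratios of arms within a library. All intervals cover counting error only, since each medium has 1 library and variation between cultures could not be measured. PCR copies of a molecule could not be told from further molecules, so counting error itself may be understated. In these bulk libraries, fewer cells of a type and less RNA per cell cannot be told apart. Of markers of other cells, 5 of 6 muscle fibre miRNAs were listed, with a summed level of 0.306% of reads in BM and 0.0310% in ADM, nearly all of it miR-133a-3p (2266 and 231 reads). The muscle-enriched miR-486-5p, in a row shared with miR-3107-5p, was not on the marker list and had 4509 and 1342 reads. The 1 endothelial marker listed, miR-126-3p, had 27 and 35 reads. The other arm of its hairpin, miR-126-5p, was not on the marker list and had 61 and 168 reads, a log2 ratio of 1.38. Of epithelial markers, 4 of 6 summed to 20 and 16 reads (miR-200b-3p at 0 in BM, miR-141-3p and miR-205-5p at 0 in ADM). Of 8 haematopoietic names 2 were listed, with 1 and 4 reads in all (miR-451a was at 0 in BM). The mesenchymal markers miR-143-3p, miR-145a-5p, miR-199a-5p and miR-214-3p summed to 4.11% of reads in BM and 6.13% in ADM, with members on either side of 0. miR-143-3p had 21636 and 42301 reads, while the other 3 summed to 9405 and 6174, of which miR-199a-5p had 7293 and 3954. The part of these differences in the miR-30 values was not tested.

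The miR-30 seed was carried by a larger share of reads in the ADM library, and miR-30a-5p held most of the difference. The 5p arms together had 19831 reads in BM, 2.63% of the library (2.59 to 2.66%), and 30357 reads in ADM, 3.84% (3.80 to 3.88%). The summed level was 1.46-fold higher in ADM (1.44 to 1.49). Of the difference of 1.21 percentage points, miR-30a-5p made up 77.2% and miR-30c-5p 11.5% at the deposited totals. Without miR-30a-5p the 5p sum was 1.16-fold higher (1.13 to 1.18), and without both of these arms it was 1.08-fold higher (1.06 to 1.11).

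miR-30a-5p had 6533 reads in BM, or 0.865% (0.844 to 0.886%), and 14248 in ADM, or 1.80% (1.77 to 1.83%). It was 2.08-fold higher in ADM (2.02 to 2.15), and held rank 24 of all listed miRNAs in BM and rank 14 in ADM. miR-30d-5p, the highest family member in BM, had 6987 and 7978 reads, 0.925% (0.904 to 0.947%) and 1.01% (0.987 to 1.03%). Its ratio was 1.09 (1.06 to 1.13), and it held rank 23 in each library. miR-30e-5p had 4766 and 5250 reads, 0.631% (0.613 to 0.649%) and 0.664% (0.646 to 0.682%). Its ratio was 1.05 (1.01 to 1.09), a direction that turns when the libraries are scaled by the trimmed mean of M values (TMM; log2 ratio 0.073 as deposited and -0.029 with TMM). Of these 3 arms miR-30a-5p thus had by far the largest difference. The log2 ratios of miR-30e-5p and miR-30d-5p differed by -0.052 (normal interval -0.12 to 0.021), an interval that includes no difference.

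The other 5p arms were less abundant. miR-30c-5p had 1060 reads in BM and 2213 in ADM, 0.140% (0.132 to 0.149%) and 0.280% (0.268 to 0.292%). Its 1.99-fold ratio (1.85 to 2.15) lies beside that of miR-30a-5p. miR-30b-5p had 485 and 668 reads, 0.0642% (0.0586 to 0.0702%) and 0.0845% (0.0782 to 0.0911%), a 1.32-fold difference (1.17 to 1.48).

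**Figure D1:**
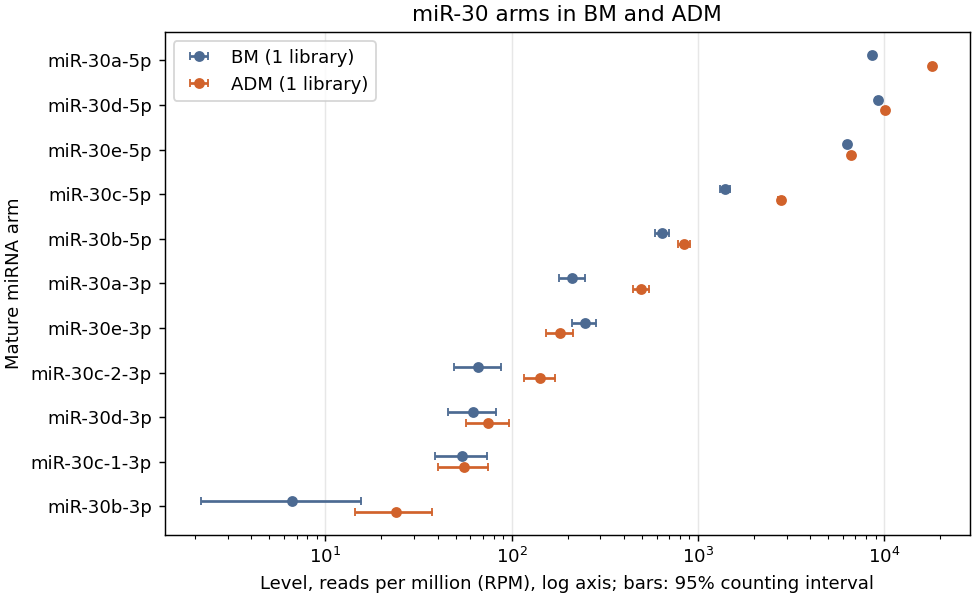
Level of each miR-30 arm in RPM (log axis) in the BM and the ADM library, 1 library each; bars are 95% counting intervals. The 5p arms lie above the 3p arms, and the widest gap among the abundant arms is that of miR-30a-5p, with 8651 RPM in BM and 18021 RPM in ADM.

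An arm was called where log2((ADM + 1)/(BM + 1)), in RPM, reached 1 in either direction and the level averaged over the libraries reached 10 RPM. All 11 arms were above that minimum. In this comparison 10.7% of the 337 miRNAs above the minimum were called higher and 20.5% lower. Of the miR-30 arms 4 of 11 were called higher, 0 lower and 7 neither. These arms come from 6 hairpins at 3 loci, so they are not independent units. The called arms were miR-30a-5p (log2 ratio 1.06), miR-30a-3p (1.23), miR-30c-2-3p (1.09) and miR-30b-3p (1.72). miR-30c-5p, at 0.995, lay just under the threshold. miR-30b-3p had 6.62 RPM in BM and 24.0 RPM in ADM, so it passed the minimum only through its ADM level. With TMM, 2 arms were called, miR-30a-3p and miR-30b-3p, against a background of 8.66% higher and 23.6% lower. The log2 ratios of miR-30a-5p and miR-30c-2-3p were then 0.96 and 0.98. With median ratio scaling 5 arms were called higher, miR-30c-5p being added, against 11.9% of all miRNAs. A 1.5-fold threshold also gave 5, against 22.3%, and a 3-fold threshold gave 1, miR-30b-3p, against 3.56%.

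The median log2 ratio was 0.40 over the 11 arms and -0.023 over all 337 miRNAs above the minimum. Log2 ratios were above 0 for 10 of 11 arms, which are not independent of each other, against 164 of 337 (48.7%) of all miRNAs. TMM shifts every log2 ratio down by 0.10, which puts miR-30e-5p and miR-30c-1-3p (0.035 as deposited, -0.066 with TMM) below 0. A ratio of 1 lay outside the counting interval of 9 arms, 8 higher and 1 lower in ADM, where 29.4% of all 337 miRNAs were higher and 30.9% lower by that measure, which depends on depth. For miR-30d-3p and miR-30c-1-3p the interval included 1. Among all miRNAs above the minimum, 33 had a higher ratio than miR-30a-5p and 152 a higher ratio than miR-30e-5p, which shares 21 of its 22 bases.

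**Figure D2:**
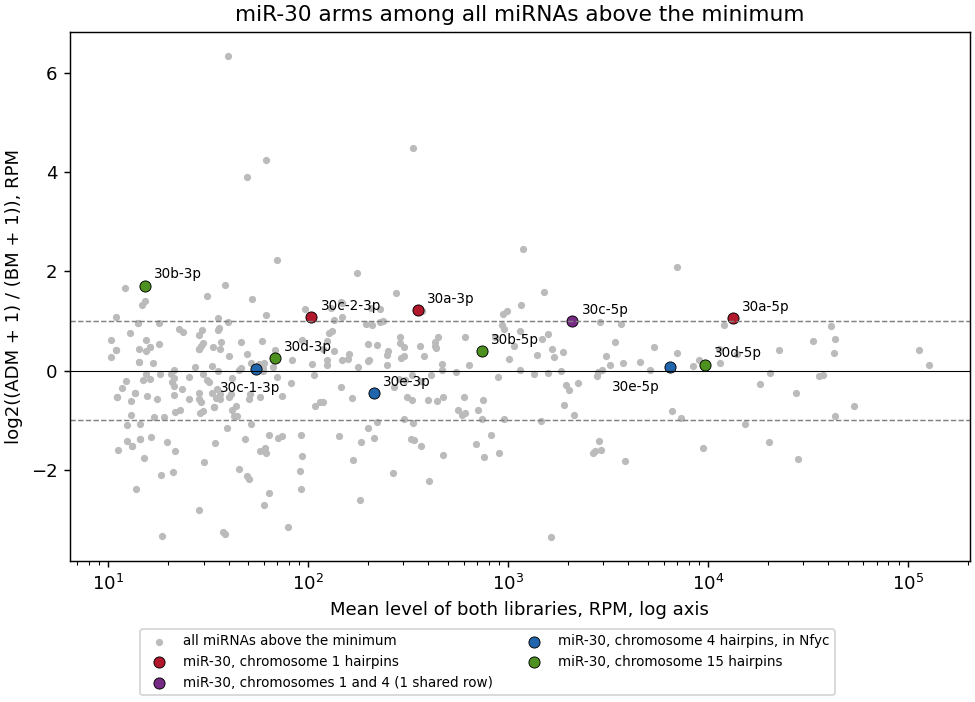
Mean level of both libraries (RPM, log axis) against log2((ADM + 1)/(BM + 1)) for the 337 miRNAs above 10 RPM, with the 11 miR-30 arms coloured by locus; dashed lines mark 2-fold. The miR-30a arms and miR-30c-2-3p lie just above the upper dashed line and miR-30c-5p on it, while miR-30e-5p and miR-30d-5p lie near 0.

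The balance between members does not depend on how the libraries are scaled, and it differed between the libraries. miR-30a-5p made up 32.9% of the 5p reads in BM (32.3 to 33.6%) and 46.9% in ADM (46.4 to 47.5%). miR-30c-5p made up 5.35% (5.04 to 5.67%) and 7.29% (7.0 to 7.59%). The shares of both were thus higher in ADM. The share of miR-30d-5p was lower in ADM, with 35.2% in BM (34.6 to 35.9%) and 26.3% in ADM (25.8 to 26.8%). miR-30e-5p likewise had 24.0% (23.4 to 24.6%) and 17.3% (16.9 to 17.7%). Since the shares make up a whole, a higher share of some arms means a lower share of others. At the deposited totals the levels of miR-30d-5p and miR-30e-5p were slightly higher in ADM (ratios 1.09 and 1.05). For miR-30e-5p that direction turned with TMM. miR-30b-5p had 2.45% (2.24 to 2.67%) and 2.20% (2.04 to 2.37%), and the interval of its odds ratio included no difference (log2 -0.16, normal interval -0.33 to 0.015).

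The order of the 5p arms in BM was miR-30d, miR-30a, miR-30e, miR-30c and miR-30b. In ADM miR-30a-5p came first and the order of the others stayed as in BM. Neighbours differed beyond counting error in each library. The closest pair was miR-30d-5p and miR-30a-5p in BM, with a ratio of 1.07 (normal interval 1.03 to 1.11). In ADM the same pair stood the other way round, miR-30a-5p being 1.79-fold above miR-30d-5p (1.74 to 1.84).

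**Figure D3:**
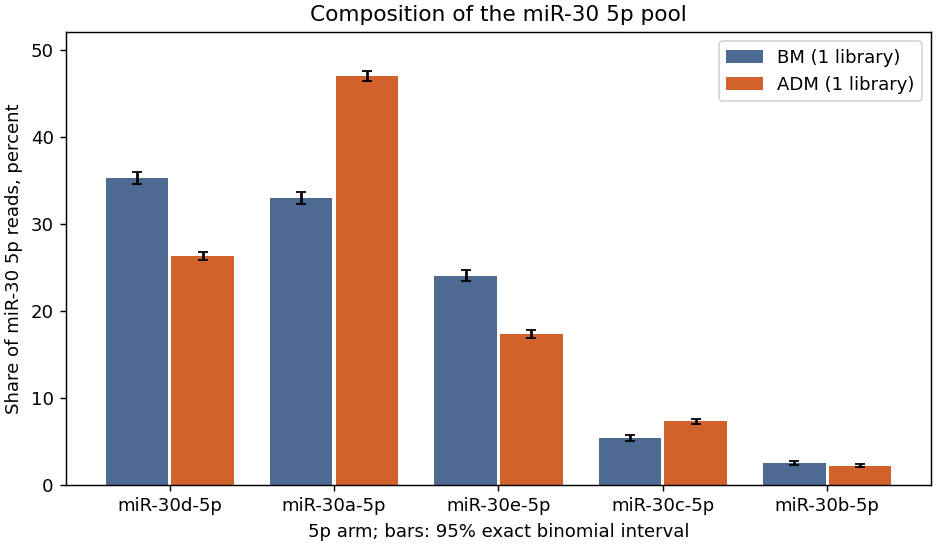
Share of each 5p arm in the summed miR-30 5p reads (percent) in the BM and ADM libraries, 1 library each; bars are 95% exact binomial intervals. The miR-30a-5p share is 32.9% in BM and 46.9% in ADM, while the shares of miR-30d-5p and miR-30e-5p are lower in ADM.

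Read by locus, the arms from chromosome 1 had the highest ratios of the family, apart from miR-30b-3p of chromosome 15. This grouping was examined after the values were seen. miR-30a-3p, the opposite arm of miR-30a-5p, had 160 and 393 reads and was 2.35-fold higher (1.95 to 2.84). miR-30c-2-3p, from the neighbouring hairpin, had 50 and 112 reads and was 2.14-fold higher (1.52 to 3.05). The arms found at chromosome 1 and at neither other locus, summed, were 2.09-fold higher in ADM (2.03 to 2.15), with 6743 and 14753 reads.

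The arms from the introns of Nfyc on chromosome 4 had other ratios. miR-30e-3p had 186 and 143 reads and was 1.36-fold lower (1.09 to 1.71), the lowest ratio of the family. miR-30c-1-3p had 41 and 44 reads, a ratio of 1.03 (0.654 to 1.61). Summed, the arms unique to chromosome 4 had 4993 and 5437 reads and a ratio of 1.04 (1.001 to 1.08), which is 0.969 with TMM. The sum is mostly miR-30e-5p, and without it the ratio was 0.787.

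The chromosome 15 arms summed to 7524 reads in BM and 8724 in ADM, a ratio of 1.11 (1.07 to 1.14). Besides miR-30d-5p and miR-30b-5p these were miR-30d-3p, with 47 and 59 reads (ratio 1.20, 0.804 to 1.80), and miR-30b-3p, with 5 and 19 reads. The 3.63-fold ratio of miR-30b-3p (1.31 to 12.4) was the highest of the family and rests on the fewest reads, and its level of 15.3 RPM in the mean was nearest to the 10 RPM minimum.

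**Figure D4:**
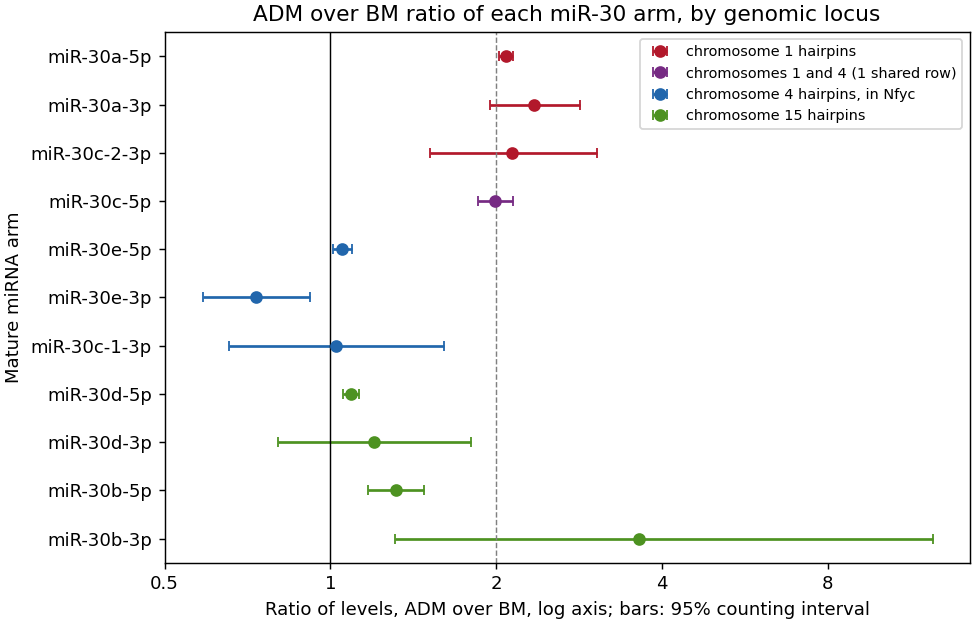
Ratio of levels, ADM over BM (log axis), of each miR-30 arm, coloured by locus; bars are 95% counting intervals, the solid line marks no difference and the dashed line 2-fold. The 3 arms unique to chromosome 1 lie between 2.08 and 2.35 and the 3 unique to chromosome 4 between 0.734 and 1.05.

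Like arms of the chromosome 1 and chromosome 4 hairpins were set against each other, which again does not depend on scaling. The log2 ratio of miR-30a-5p exceeded that of miR-30e-5p by 0.99 (normal interval 0.91 to 1.06). For the 3p arms, miR-30a-3p exceeded miR-30e-3p by 1.68 (1.26 to 2.09), with reads differing in direction between the libraries. miR-30c-2-3p exceeded miR-30c-1-3p by 1.06 (0.28 to 1.84). All 3 comparisons went the same way, in a grouping examined after the values were seen. The first 2 use both arms of the same hairpins, Mir30a and Mir30e, so they are not independent of each other. miR-30c-2-3p made up 50 of 91 miR-30c 3p reads in BM (54.9%, 44.2 to 65.4%) and 112 of 156 in ADM (71.8%, 64.0 to 78.7%).

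Neighbouring hairpins were then compared within a locus. On chromosome 1 the log2 ratios of miR-30a-3p and miR-30c-2-3p differed by 0.13 (-0.42 to 0.68), and on chromosome 4 those of miR-30e-3p and miR-30c-1-3p by -0.48 (-1.17 to 0.21). Neither difference was beyond counting error, at intervals that leave room for sizeable ones. On chromosome 15 miR-30b-5p had a log2 ratio above that of miR-30d-5p by 0.27 (0.10 to 0.45), and miR-30b-3p above that of miR-30d-3p by 1.60 (0.073 to 3.12). The shared row miR-30c-5p differed by -0.063 from miR-30a-5p (-0.18 to 0.051) and by 0.92 from miR-30e-5p (0.80 to 1.04). Its reads cannot be divided between chromosomes 1 and 4.

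The 5p arm was the major arm of every member in both libraries, with 97.6% of the family's reads in BM and 97.5% in ADM. The 3p share ran from 0.668% for miR-30d to 7.91% for miR-30c in BM, and from 0.734% to 6.59% for the same members in ADM. For miR-30a the 3p share was 2.39% in BM (2.04 to 2.79%) and 2.68% in ADM (2.43 to 2.96%), and the 5p arm had a log2 ratio 0.17 below that of the 3p arm (difference -0.17, normal interval -0.44 to 0.10). For miR-30e the 3p share was 3.76% in BM (3.24 to 4.32%) and 2.65% in ADM (2.24 to 3.12%), a difference of 0.52 between the arms (0.20 to 0.84). The arm differences of miR-30c (0.28, -0.10 to 0.67) and miR-30d (-0.14, -0.69 to 0.42) were within counting error. That of miR-30b (-1.46, -2.90 to -0.033) rests on 5 reads of the 3p arm in BM.

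Other miRNAs that have been tied to adipogenesis are given for comparison, from lists chosen with earlier results of these data known. Of 13 other miRNAs reported to promote it, all above the minimum, 3 were called higher, 1 lower and 9 neither, with a median log2 ratio of 0.90, beside the 10.7% higher and 20.5% lower of all 337 miRNAs. The most abundant was miR-21a-5p (0.42), the highest ratio was that of miR-146b-5p (2.08) and the lowest that of miR-204-5p (-1.72). Of 13 miRNAs above the minimum reported to inhibit it, 3 were called higher, 1 lower and 9 neither, with a median of 0.021. Here miR-22-3p was the most abundant (0.11), miR-138-5p had the highest ratio (4.48) and miR-222-3p the lowest (-1.42). Of the miR-30 5p arms, miR-30a-5p (1.06) and miR-30c-5p (0.995) lay above the median of the promoting list, while miR-30b-5p (0.40), miR-30d-5p (0.13) and miR-30e-5p (0.073) lay below it, as did the median of the 11 arms (0.40).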

How the data were processed

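Small RNA was extracted with a mirVana kit, made into libraries with the Illumina TruSeq small RNA kit and size-selected on a gel (band of 147 bp), per the labels' protocols. Per the file headers, miRanalyzer made the deposited values. Its version, filters and handling of multi-mapping reads were not given in the sources used here. Build mm10 is listed by the submitters' processing notes. The authors deposited each miRNA as a percent of reads. The authors' deposited table also holds the ratio of ADM to BM, with each 0 replaced by 0.5 read, and its log2, in a column headed ln2 whose values equal log2 in 628 of 628 rows (tolerance 1e-06). The ratios computed here equal the authors' for all 11 arms, within the same relative tolerance.

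The smallest value above 0 in each column was taken as 1 read (1.32 RPM in BM, 1.26 in ADM), of which 100% of the percent values were whole multiples within 0.001 read. Reads outside listed miRNAs (679 and 807) stay in the totals. Ratios between the libraries have exact conditional (Clopper-Pearson) intervals. Differences of log2 ratios, odds ratios and ratios of arms within a library have normal ones. No p-value was computed, since each medium has 1 library. Python 3.11.15 with scipy 1.17.1 was used.

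The members, lists and comparisons were chosen with earlier results of these data known. The text names every miR-30 arm. Of other miRNAs it names same-seed ones, cell type markers with miR-126-5p and miR-486-5p added later, and the extremes and the most abundant of each list. It also names the 3 miRNAs of at least 1000 RPM nearest to the summed 5p ratio. Alternatives were other scalings, pseudocounts, level minima, folds and arm choices.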

Additional observations from a re-analysis of the deposited data

How the results depend on the processing

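No paired analysis was possible because each medium has 1 library. The 1.46-fold ratio of the summed 5p arms was 1.36 with TMM, 1.49 with median ratio scaling and 1.39 with totals that leave out 77 rows of the Dlk1-Dio3 cluster. The 4 arms called became 2 with TMM, 1 with a 3-fold threshold (miR-30b-3p, with the fewest reads) and 1 among 5p arms alone, the last 2 by construction; median ratio scaling and a 1.5-fold threshold each gave 5 by adding miR-30c-5p. The median log2 ratio was 0.70 with a minimum of 100 RPM, which leaves 8 arms. The miR-30c share of the pool in ADM was 7.61% with all arms. By locus (alternatives chosen after seeing the data), TMM gave 1.95 for chromosome 1, 0.969 for chromosome 4 and 1.03 for chromosome 15, and leaving out the most abundant arm gave 2.30, 0.787 and 1.33. With TMM miR-30d-5p had a log2 ratio of 0.022, miR-30a-5p of 0.96 and miR-30e-5p of -0.029. Of 76 alternative values, 58 stayed within their counting interval or, for counts, within 1.5 times, with no change of sign, and 14 moved further. The other 4 turned in direction: the chromosome 4 sum under both alternatives just given, and with TMM miR-30e-5p and, within its interval, miR-30c-1-3p (-0.066). Some of the 58 could not move, such as those without a level minimum, which all 11 arms pass. Others could hardly move, such as those adding 0.5 read to differences of log2 ratios. Shares of the pool, arm differences and differences between hairpins do not involve the scaling. Depth limits the 3p arms of miR-30b, miR-30c and miR-30d.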

Other observations

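In other families whose members share a seed, sums and spreads differed from those of miR-30. The 9 5p arms of let-7 and miR-98, regulators of growth and differentiation, summed to 10.9% of reads in BM and 14.2% in ADM, a ratio of 1.30 (counting interval 1.29 to 1.31). Their log2 ratios spanned 1.24 over 9 arms, against 0.99 over the 5 miR-30 5p arms. A span can only grow as arms are added, so spans of sets of unlike size are not directly comparable. The 3 3p arms of miR-29, which is known to repress collagen genes, summed to 0.534% and 0.546%, a ratio of 1.02 (0.980 to 1.07), and spanned 0.19. Counting intervals of the summed ratios did not overlap between the 3 families. Such intervals narrow as reads increase and take no account of variation between cultures. Whether the families differ beyond that variation was not tested.

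Among 68 other miRNAs of at least 1000 RPM, those with a log2 ratio nearest to that of the summed miR-30 5p arms (0.55) were miR-25-3p (0.59), miR-320-3p (0.50) and let-7c-5p (0.60). The likeness is over 2 libraries and is a description.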
